A study of Arabidopsis thaliana with 12 samples.

Results

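In hypocotyls of Arabidopsis thaliana, 12 genes fell with auxin in young plants and rose with it in mature ones. They were chosen by their response: among the 13513 non-control probe sets of the array with exactly 1 annotated gene, those whose mean was at least 0.7 lower with auxin at 7 days and at least 0.7 higher with auxin at 35 days, both on the log2 scale. AT1G71695, a peroxidase gene, also met both thresholds (−3.92 and 0.85) but the rule leaves it out by name. The rule also leaves out EXPA8 and symbols starting with UGT, CYP, MYB or CYC, none of which met the thresholds. The 12 genes make up 0.0888% of the 13513 probe sets, each has 1 probe set, and no filter on low values was applied, so all 12 are described below.

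The study measured hypocotyls, the seedling stem between root and leaves, of the ecotype Col-0 grown on MS medium at full strength. There were 4 groups of 3 arrays, each array described as a biological replicate: 7-day-old (young) and 35-day-old (mature) hypocotyls, each either untreated or exposed to auxin over 1 day. Which auxin was used, at what dose, and whether untreated plants waited out that day is not given in the sources used here. The auxin responses below are differences between the auxin and untreated groups. If untreated plants did not wait, auxin cannot be told apart from the day itself and its handling. All plants carry the same genotype, and the study asked how readily callus, unorganised dividing tissue, arises from hypocotyls of either age.

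Auxin is perceived by nuclear receptors that mark AUX/IAA repressors for destruction, which frees the auxin response factors to change transcription. In young hypocotyls auxin is best known for controlling elongation, which depends on loosening of the cell wall. In older hypocotyls, which thicken through the vascular cambium, and in explants of either age it can start new divisions that lead to lateral organs or callus. A whole young hypocotyl holds epidermis, cortex, endodermis, pericycle and vascular tissue, and the make-up of the tissue can differ at 35 days. In bulk RNA of either age, fewer cells of a type and less RNA per cell cannot be told apart.

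Deposited values are relative to the median of each probe set over the 12 arrays, so a value of 0 is that gene's own middle level and levels cannot be compared between genes. Some controls set arrays apart. In either untreated group, arrays 1 and 2 had a low signal of the bioC spike-in, a control transcript added to every sample (means of −1.71 to −1.33), and array 3 a high signal (0.48 to 0.67). The auxin arrays ranged from −0.28 to 0.19. The control for large-subunit ribosomal RNA ranged from −2.56 to −1.06 without auxin and from 1.06 to 2.50 with it. The part of either control in the results was not tested. A response that no longer met its threshold against array 3 alone is given with that value.

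Across the 12 genes the response in young hypocotyls ran from −1.43 to −0.71, and the median was a 2.00-fold decrease. In mature hypocotyls it ran from 0.76 to 2.28 with a median of 1.22, a 2.34-fold increase. The rise in mature hypocotyls was the larger of both responses in 7 genes and the fall in young ones in 5. In all 12 genes the auxin arrays lay apart from the untreated arrays at both ages, below them in young and above them in mature hypocotyls. Over all 22746 non-control probe sets this joint pattern held in 1.6%, and separation in that direction held in 28.9% for young and 34.9% for mature hypocotyls. The 12 were chosen by these responses, so this is a description of the choice and no test is given. The same holds for the limma calls, which took in all 12 genes as lower in young hypocotyls (background 26.4%), as higher in mature ones (background 31.8%) and as higher in the mature minus the young response (background 17.5%).

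**Figure D1:**
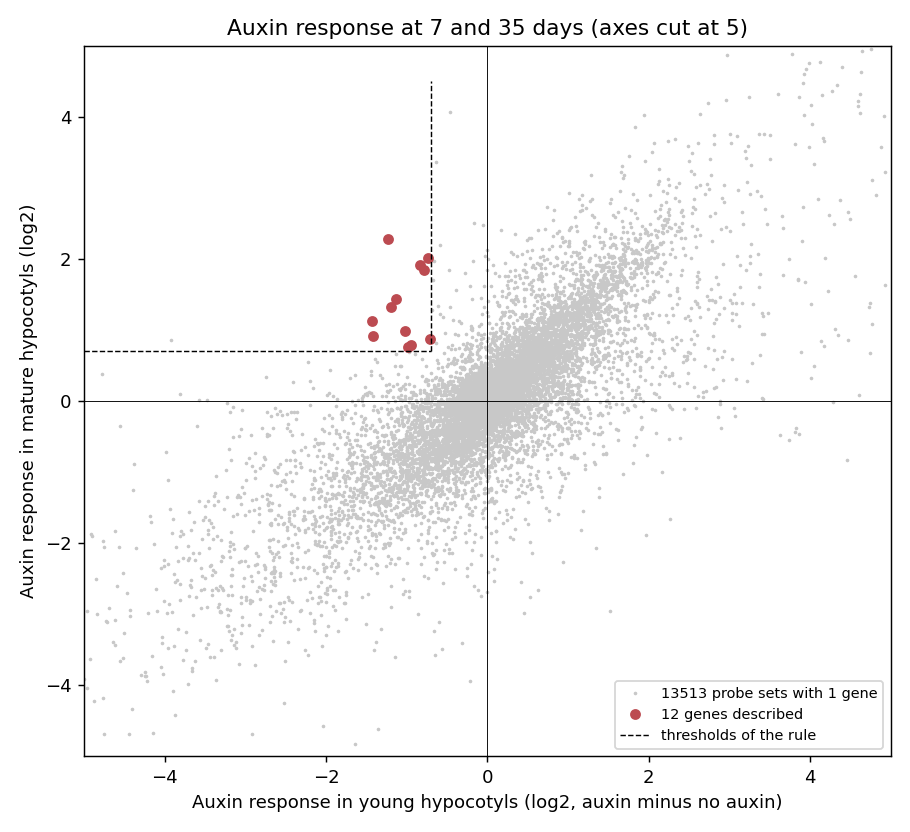
Auxin response (auxin minus no auxin, log2 of group means, n = 3 per group) in young hypocotyls on the x axis and in mature ones on the y axis, for the 13513 probe sets with 1 gene (grey) and the 12 genes described (red); dashed lines mark the thresholds of 0.7. Most grey points run along the diagonal, and the 12 genes lie in the sparse upper left; the grey point beyond the thresholds is AT1G71695, and points past the ends of the axes are not drawn.

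Genes of enzyme families are described first, then those of signalling and transcription. Family names here and below are general knowledge of Arabidopsis, since the annotation used gives a symbol for RALFL34 alone. AT5G48900 belongs to the pectate lyases, enzymes that cut de-esterified pectin. Its values were 2.54, 2.28 and 1.92 on the young arrays without auxin and 1.43, 1.11 and 0.51 with it. In mature hypocotyls they were −3.29, −2.72 and −2.89 without auxin and −0.51, −0.71 and −0.86 with it. The 4 groups did not overlap, and all young arrays lay above all mature ones. The gene was 2.35-fold lower with auxin in young hypocotyls (log2 −1.23 ± 0.22 SE, n = 3 per group) and 4.85-fold higher in mature ones (2.28 ± 0.22), the largest rise of the 12. When quantile normalization was repeated on the deposited values, the fall was −0.43.

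AT3G16370 encodes a GDSL-type esterase or lipase, a family with roles in cutin and suberin as well as in other lipids. Young arrays stood at 3.15, 3.12 and 2.96 without auxin and at 2.10, 1.96 and 1.75 with auxin. Mature arrays stood at −3.20, −3.53 and −3.79 without and at −1.75, −2.08 and −2.39 with auxin. Each group kept to its own range, in the same order as for AT5G48900: young untreated, young with auxin, mature with auxin, mature untreated. The fall in young hypocotyls was 2.20-fold (−1.14 ± 0.17) and the rise in mature ones 2.70-fold (1.43 ± 0.17). With quantile normalization repeated, the young response was −0.06 and the mature one 1.77, so the fall in young hypocotyls nearly vanished under that step. The step was applied to values already centred on each probe set's median, so it differs from the normalization within RMA.

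The family 17 glycosyl hydrolases, to which AT2G05790 belongs, include enzymes that cut beta-1,3-glucans such as callose. Without auxin this gene lay at 0.71, 0.62 and 0.58 on young arrays and at −0.88, −0.70 and −0.87 on mature ones. With auxin it lay at 0.04, −0.09 and −0.16 in young and at 0.02, −0.02 and 0.17 in mature hypocotyls. The 2 auxin groups overlapped, while the untreated groups lay on either side of them. Its fall of 1.64-fold (−0.71 ± 0.09) was the smallest of the 12 in young hypocotyls, with a rise of 1.83-fold (0.87 ± 0.09) in mature ones. Against array 3 of the untreated young group alone the fall was −0.65, and with quantile normalization repeated it was −0.68.

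AT1G80280 is a member of the alpha/beta hydrolases, a large group of enzymes with varied substrates. Untreated arrays read 1.39, 1.61 and 1.67 in young and −1.49, −1.33 and −1.46 in mature hypocotyls. Auxin arrays read 0.31, 0.10 and −0.04 in young and −0.48, −0.46 and 0.04 in mature hypocotyls. Again only the auxin groups of the 2 ages overlapped. This gene had the largest fall in young hypocotyls, 2.70-fold (−1.43 ± 0.14), and rose 2.18-fold in mature ones (1.13 ± 0.14).

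**Figure D2:**
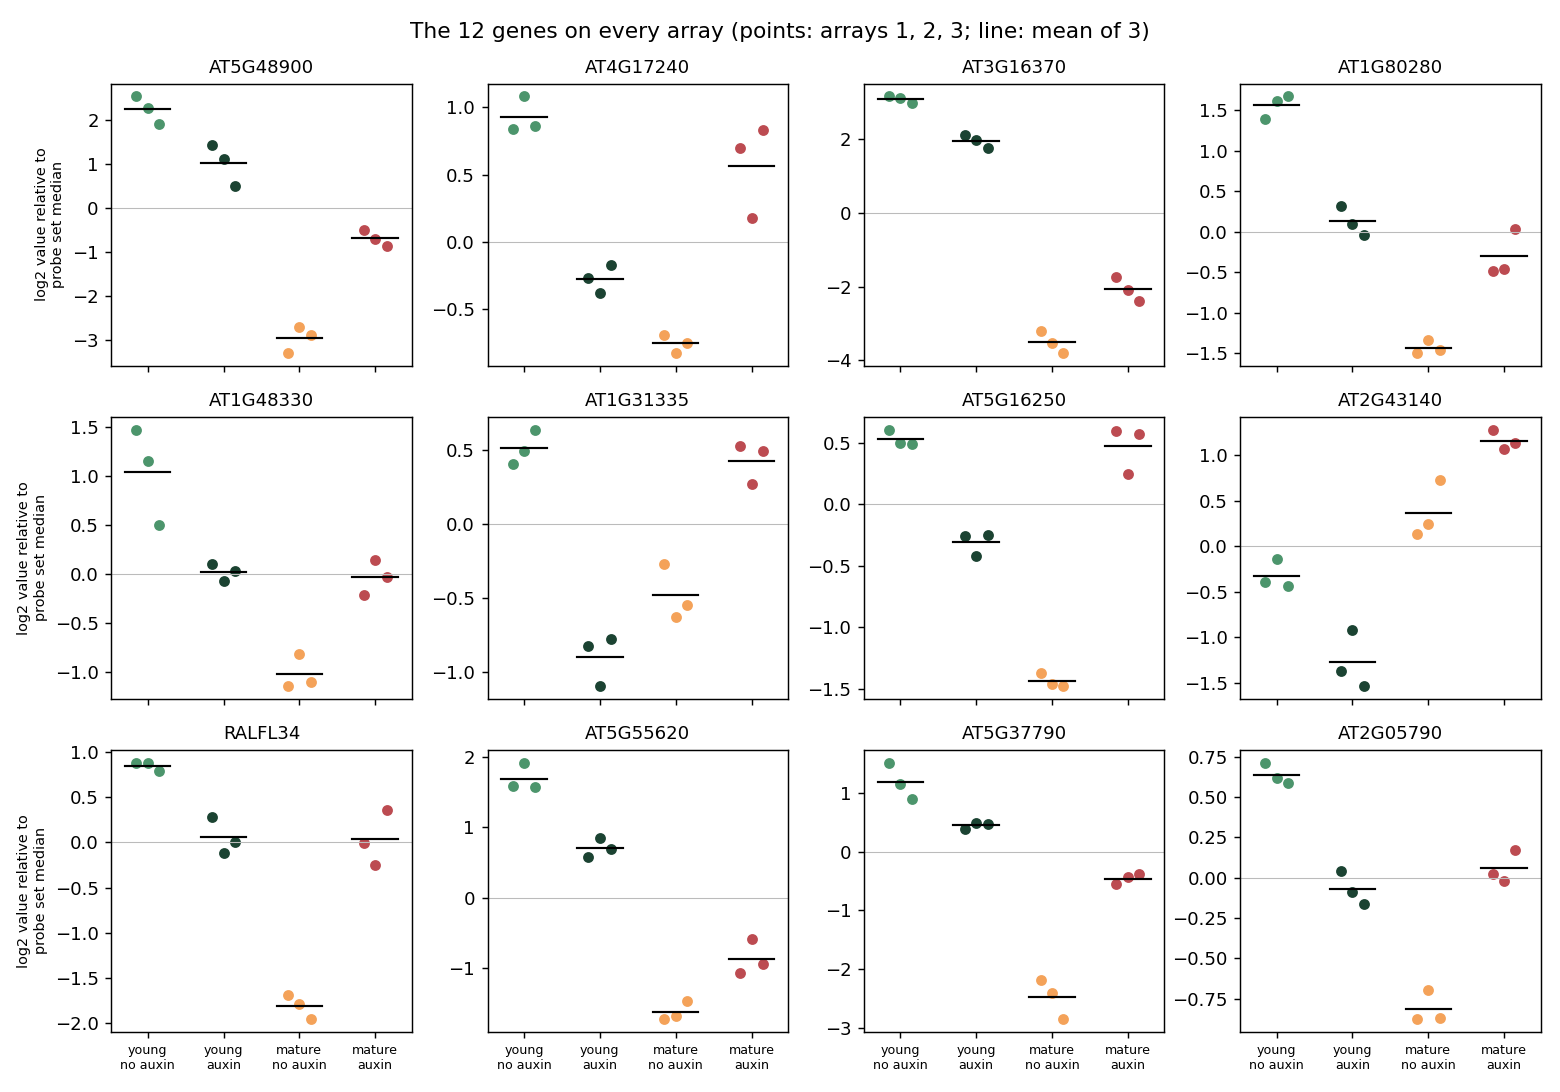
Value on every array (log2, relative to the probe set's median over the 12 arrays) of the 12 genes in the 4 groups; points are arrays 1, 2 and 3 from left to right, lines are means, and each panel has its own y axis. In every panel the auxin arrays lie below the untreated ones in young hypocotyls and above them in mature hypocotyls.

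RALFL34 encodes a peptide of the RALF family, small secreted cysteine-rich signals that are read by receptor kinases of the FERONIA type at the cell surface. In roots RALFL34 is known as a ligand of the receptor THESEUS1 that takes part in lateral root initiation. Its values on young arrays were 0.88, 0.88 and 0.79 without auxin and 0.28, −0.11 and 0.01 with it. On mature arrays they were −1.69, −1.79 and −1.95 without auxin and −0.01, −0.26 and 0.36 with it. The ages were far apart without auxin and overlapped with it. The fall was 1.73-fold (−0.79 ± 0.14) and the rise 3.59-fold (1.84 ± 0.14). With quantile normalization repeated the fall was −0.67, short of the threshold.

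AT5G37790 belongs to the protein kinase superfamily. Young hypocotyls gave 1.51, 1.16 and 0.89 without auxin and 0.38, 0.49 and 0.48 with auxin. Mature hypocotyls gave −2.18, −2.40 and −2.85 without and −0.56, −0.44 and −0.38 with auxin. The groups did not overlap, and the untreated arrays of either age spread more than the auxin arrays. The rise in mature hypocotyls was 4.06-fold (2.02 ± 0.16) and the fall in young ones 1.67-fold (−0.74 ± 0.16). Against array 3 of the untreated young group alone, the array with the higher bioC signal, the fall was −0.44, and with quantile normalization repeated it was −0.43.

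AT2G43140 belongs to the bHLH transcription factors, which bind DNA as dimers. It read −0.39, −0.14 and −0.44 without auxin and −1.37, −0.92 and −1.53 with auxin on young arrays. It read 0.14, 0.24 and 0.72 without and 1.28, 1.07 and 1.13 with auxin on mature arrays. It was the 1 gene of the 12 with its highest mean in mature hypocotyls with auxin, and all its mature arrays lay above all young ones. It fell 1.93-fold in young (−0.95 ± 0.17) and rose 1.73-fold in mature hypocotyls (0.79 ± 0.17). Against array 3 of the untreated mature group alone the rise was 0.43.

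For the 5 remaining genes no role is given here. AT4G17240 stood at 0.84, 1.08 and 0.86 in untreated young hypocotyls and at −0.27, −0.38 and −0.18 after auxin. In mature hypocotyls it stood at −0.69, −0.83 and −0.75 without and at 0.70, 0.18 and 0.83 with auxin. With auxin the mature arrays thus lay above the young ones, the reverse of the order without it. Its responses were of nearly equal size, 2.30-fold lower (−1.20 ± 0.14) and 2.50-fold higher (1.32 ± 0.14).

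AT5G16250 showed the same reversal between ages. Its young arrays read 0.61, 0.50 and 0.49 without auxin and −0.25, −0.42 and −0.25 with it. Its mature arrays read −1.38, −1.46 and −1.48 without auxin and 0.60, 0.25 and 0.57 with it, so that mature hypocotyls with auxin overlapped untreated young ones. The rise was 3.76-fold (1.91 ± 0.10) against a fall of 1.79-fold (−0.84 ± 0.10). AT1G31335 read 0.40, 0.50 and 0.64 without and −0.83, −1.10 and −0.78 with auxin in young hypocotyls. In mature ones it read −0.27, −0.63 and −0.55 without and 0.53, 0.27 and 0.49 with auxin. Young hypocotyls with auxin were its lowest group, as for AT2G43140 and for no other of the 12. It fell 2.67-fold (−1.41 ± 0.12) and rose 1.88-fold (0.91 ± 0.12).

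AT1G48330 gave 1.48, 1.16 and 0.50 on untreated young arrays, a wider spread (SD 0.50, n = 3) than in any other group of the 12 genes. After auxin these arrays gave 0.11, −0.07 and 0.03. Mature hypocotyls gave −1.14, −0.81 and −1.10 without and −0.21, 0.15 and −0.03 with auxin. The auxin groups of the 2 ages overlapped. Its fall was 2.03-fold (−1.02 ± 0.19), but −0.48 against array 3 of the untreated young group alone, and its rise was 1.98-fold (0.99 ± 0.19). AT5G55620 gave 1.58, 1.92 and 1.57 in untreated young hypocotyls and 0.58, 0.85 and 0.69 after auxin. Mature hypocotyls gave −1.73, −1.68 and −1.47 without and −1.07, −0.58 and −0.95 with auxin. All its young arrays lay above all mature ones. Its rise of 1.69-fold (0.76 ± 0.13) was the smallest of the 12 and its fall was 1.98-fold (−0.99 ± 0.13), or −0.39 with quantile normalization repeated. Against array 3 of the untreated mature group alone the rise was 0.60.

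The comparison of ages asked where these genes stood in mature against young hypocotyls. Averaged over both treatments, 10 of the 12 genes were lower in mature hypocotyls, 1 was higher and 1 was not called. A lower average does not mean lower under both treatments, and some of the 10 were higher in mature hypocotyls with auxin. The rule did not use this averaged contrast. Where arrays with and without auxin spread equally, the error of the mean of an age over both is uncorrelated with that of the auxin response. The spread was unequal in some members, such as AT1G48330 in young hypocotyls (SD 0.50 without and 0.09 with auxin), so the contrast is not fully independent of the rule there. It was tested with limma on all 12 arrays (Benjamini-Hochberg adjusted p under 0.05 over 22746 probe sets). Of all probe sets 21.2% were called lower and 21.8% higher with age. The median age difference of the 12 genes was −1.20, beside −0.01 over all probe sets.

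The largest age difference was that of AT3G16370, 39.3-fold lower in mature hypocotyls (log2 −5.30 ± 0.12 SE, n = 3 per group, limma adjusted p = 1.4e-12). AT5G48900 followed at −3.46 ± 0.16 (limma adjusted p = 5.9e-10), then AT5G55620 at −2.44 ± 0.10 (limma adjusted p = 1.5e-10) and AT5G37790 at −2.29 ± 0.12 (limma adjusted p = 2e-09). AT1G80280 (−1.71 ± 0.10), RALFL34 (−1.34 ± 0.10) and AT1G48330 (−1.06 ± 0.14) were lower as well. Smaller decreases of the average were called for AT2G05790 (−0.66 ± 0.06), AT5G16250 (−0.60 ± 0.07) and AT4G17240 (−0.42 ± 0.10, limma adjusted p = 0.0031). In each of these the sign differed between treatments. The age difference was −1.45 without and 0.13 with auxin in AT2G05790, −1.97 and 0.78 in AT5G16250, and −1.68 and 0.84 in AT4G17240. The call for AT4G17240 was lost without the 4 arrays of low bioC signal (−0.39, limma adjusted p = 0.1), which left 9 genes lower and 1 higher. The bHLH gene AT2G43140 was 2.95-fold higher in mature hypocotyls (1.56 ± 0.12, limma adjusted p = 1e-07). AT1G31335 was not called, at 0.17 ± 0.08 (limma adjusted p = 0.13).

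The age difference within each treatment shares its arrays with the rule and is given as a description. Without auxin 11 of the 12 genes were lower in mature hypocotyls, with a median difference of −2.36 beside −0.03 over all probe sets. The ages did not overlap in 12 of the 12, as in 53.4% of all probe sets. With auxin 7 were lower and 5 higher, with a median of −0.04 beside 0.03 over all probe sets. The ages then did not overlap in 8 of the 12, as in 40.7% of all probe sets. The difference was smaller with auxin than without it in 10 genes and larger in AT1G31335 and AT2G43140. In these 10 the mean was highest in untreated young and lowest in untreated mature hypocotyls, with both auxin groups in between. RALFL34 went from −2.66 without to −0.03 with auxin, AT1G48330 from −2.06 to −0.06 and AT2G05790 from −1.45 to 0.13. AT3G16370 kept the widest gap, from −6.58 to −4.01. The rule requires the difference to move upward by at least 1.4, so the movement itself is no result.

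**Figure D3:**
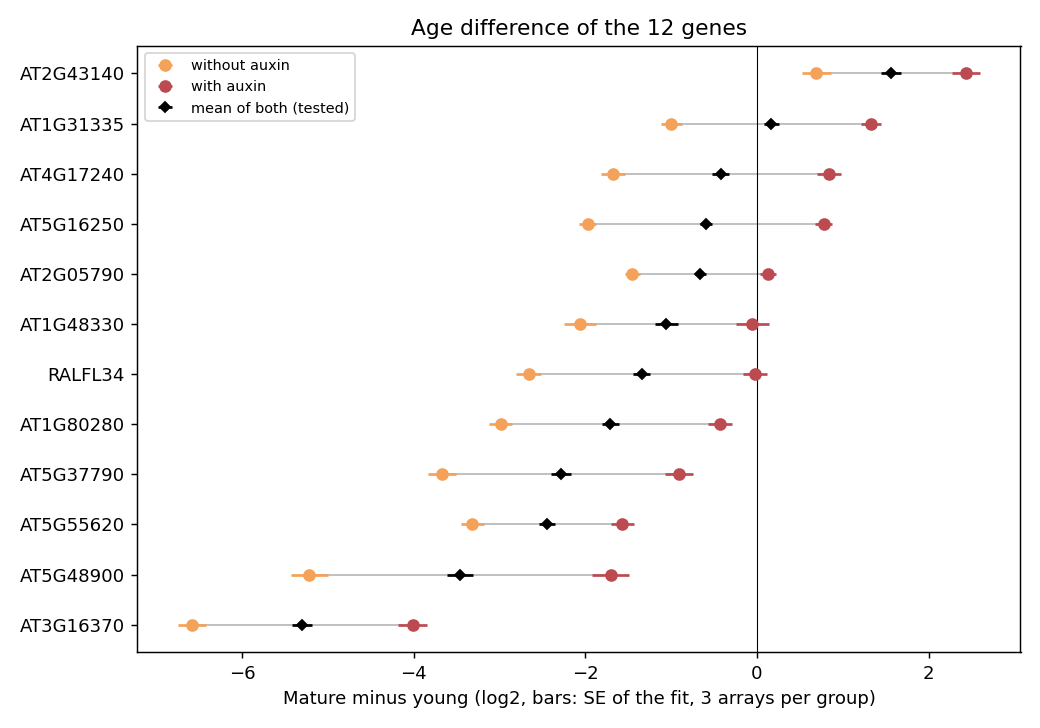
Age difference (mature minus young, log2) of the 12 genes without auxin (orange), with auxin (red) and averaged over both (black, the tested contrast); bars are standard errors from the limma fit with 3 arrays per group. The averaged difference is below 0 in 10 genes, is near 0 in AT1G31335 and is positive in AT2G43140.

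Another 16 probe sets met both thresholds but are listed with no gene, and they are not named. Their median response was −1.13 in young and 0.88 in mature hypocotyls. Averaged over treatments, 12 of the 16 were called lower and 1 higher with age (limma, background as above), with a median of −1.05. The opposite rule, at least 0.7 higher with auxin in young and at least 0.7 lower in mature hypocotyls, held for 48 probe sets with 1 gene under the same exclusions. Of these 31 were called higher and 8 lower with age, with a median of 0.66, and the difference between the 2 sets was not tested.

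Just inside the thresholds lay AT2G05790 (−0.71 and 0.87), AT5G37790 (−0.74 and 2.02) and AT5G55620 (−0.99 and 0.76), where the first value is the young and the second the mature response. Just outside lay TBL45, of a family that acetylates wall polysaccharides (−0.97 and 0.69), AT4G37110 (−0.69 and 1.29) and ASPGB1, an asparaginase that releases ammonium from asparagine (−0.68 and 1.70). The edge of the set thus parts genes with nearly the same responses.

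RALFL34 was set beside the other RALF-like genes with a probe set of their own, a list of 11 written once the members were known. In young hypocotyls 4 of the 11 rose and 3 fell with auxin, and in mature ones 4 rose and 1 fell (limma adjusted p under 0.05 over all probe sets, RALFL34 included; of all probe sets 32.7% rose and 26.4% fell in young, and 31.8% rose and 28.1% fell in mature hypocotyls). RALFL24 came nearest to RALFL34 in having a small fall in young hypocotyls (−0.39 ± 0.16, limma adjusted p = 0.044) and a rise in mature ones (1.56 ± 0.16, limma adjusted p = 7.8e-07). Unlike in RALFL34, its young groups overlapped, at 0.44, 0.87 and 0.16 without auxin and 0.22, 0.07 and −0.003 with it. The untreated array 3, with the higher bioC signal, was the lowest of its group, so the fall leaned on arrays 1 and 2. Its mature and young responses differed by 1.96 ± 0.22 (limma adjusted p = 1.4e-05). RALFL27 went the other way, with a 7.39-fold rise in young hypocotyls (2.89 ± 0.20, limma adjusted p = 1.5e-08), a mature response of 0.00 ± 0.20, and a difference of −2.89 ± 0.28 (limma adjusted p = 4e-06). RALFL22 rose at both ages (0.64 ± 0.11 and 0.83 ± 0.11) and RALFL32 fell at both (−0.36 ± 0.10 and −0.76 ± 0.10).

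Of the receptors, THE1, which encodes THESEUS1, fell in young hypocotyls (−0.62 ± 0.16, limma adjusted p = 0.0039), and its mature response was −0.05 ± 0.16 (limma adjusted p = 0.81). The difference between its responses was not called (0.57 ± 0.23, limma adjusted p = 0.069). Averaged over treatments THE1 was 1.97-fold lower in mature hypocotyls (−0.98 ± 0.11, limma adjusted p = 7.6e-06). FER, which encodes FERONIA, fell at both ages (−0.50 ± 0.11 and −0.61 ± 0.11, limma adjusted p = 0.001 and 2e-04), and its age difference was −0.09 ± 0.08 (limma adjusted p = 0.39).

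**Figure D4:**
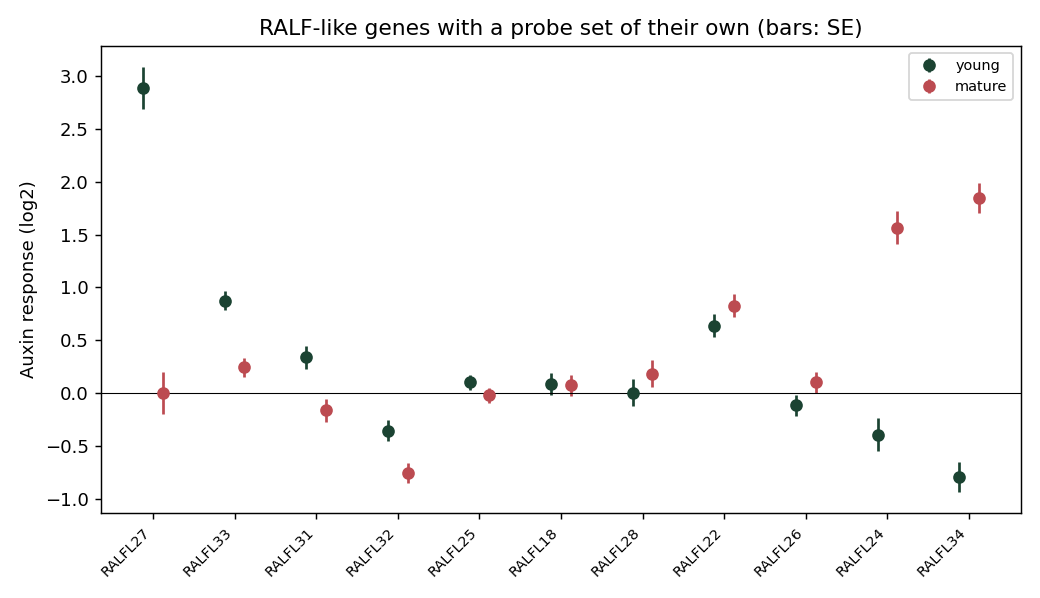
Auxin response (log2, auxin minus no auxin, n = 3 per group) of the 11 RALF-like genes with a probe set of their own, in young (green) and mature (red) hypocotyls, ordered by the mature minus the young response; bars are standard errors from the limma fit. RALFL34 and RALFL24 at the right end have a negative young and a positive mature response, though the young arrays of RALFL24 with and without auxin overlap. RALFL27 at the left end responds in young hypocotyls.

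Lists of wall genes were set beside the pectate lyase gene. They were filled by gene symbol, so wall genes known only by their locus, the pectate lyase gene among them, could not enter. Of 27 genes of wall loosening, expansins and xyloglucan enzymes, 10 rose and 6 fell with auxin in young hypocotyls, where 32.7% of all probe sets rose and 26.4% fell. In mature ones 17 rose and 3 fell, where 31.8% of all probe sets rose and 28.1% fell. The mature minus the young response of this list was called higher in 8 and lower in 5, and 17.5% of all probe sets were called in each direction. Of 34 genes of cellulose and hemicellulose synthesis and acetylation, 15 rose and 7 fell at each age, beside the same shares. Its mature minus young response was called higher in 5 and lower in 11. Averaged over treatments 20 of the 34 were lower and 3 higher in mature hypocotyls, beside 21.2% and 21.8% of all probe sets. PMEPCRF, a pectin methylesterase gene, rose in young (1.38 ± 0.11, limma adjusted p = 5.7e-08) and fell in mature hypocotyls (−1.23 ± 0.11, limma adjusted p = 2.2e-07), the reverse of the pectate lyase gene. PME61, also of the pectin methylesterases, gave 0.12 ± 0.13 in young hypocotyls (limma adjusted p = 0.47) and rose in mature ones (0.47 ± 0.13, limma adjusted p = 0.0075). GAUT15, of a family that builds pectin, rose at both ages (0.90 ± 0.09 and 0.99 ± 0.09).

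The tissue could not be checked against many markers. Of the cell type markers listed, 3 have a probe set of their own in the annotation used: MOL1 for cambium, and SPCH and MUTE for the stomatal lineage. SPCH fell with auxin in young hypocotyls (−0.56 ± 0.11, limma adjusted p = 0.00041), and its mature response was −0.16 ± 0.11 (limma adjusted p = 0.23). Averaged over treatments SPCH was lower in mature hypocotyls (−0.37 ± 0.08, limma adjusted p = 0.0012). MOL1 rose with auxin in young hypocotyls (0.39 ± 0.10, limma adjusted p = 0.0049), and its mature response was −0.0045 ± 0.10 (limma adjusted p = 0.98). MUTE gave −0.18 ± 0.14 in young and 0.26 ± 0.14 in mature hypocotyls (limma adjusted p = 0.3 and 0.13). The age differences of MOL1 (0.08 ± 0.07) and MUTE (−0.07 ± 0.10) were not called. Since values are relative to each gene's median, absence of a marker cannot be judged, and the part of a change in tissue composition in the results above was not tested.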

How the data were processed

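Per the submitters' processing notes the authors used RMA, which corrects background, normalises arrays and summarises probe sets. The deposited values are read as log2, the scale RMA gives; neither base nor version is stated. Every row of the 22810 deposited has a median of 0, so probe sets were centred. Of these, 64 controls were left out of the tests, leaving 22746, of which 13513 have 1 gene, 503 several and 8730 are listed with none. RefSeq gave the current symbols.

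The 12 arrays went into a single limma fit of the 4 groups (version 3.58.1, R version 4.3.3), leaving 8 degrees of freedom. Tests were two-sided with Benjamini-Hochberg adjustment over 22746 probe sets, and SE comes from that fit. The fit was run on simulated data with known age differences. That simulation had no auxin effect and the same spread in every group, unlike these data, and nothing here rests on it. All 12 members are named, as a rule on the size of response and age difference gave. The members and lists were chosen with earlier results of these data known. A list of pectin genes matched some unrelated symbols, so only its pectin genes are used. Same-numbered deviations correlated between −0.08 and 0.25. All 3 pairs exceeded 0.1 between the auxin groups (0.25, 0.16 and 0.12) and between no other groups. Arrays of unlike number were not compared, so these values cannot show whether the numbers pair arrays. A fit with the number as a block was an alternative. The number of arrays limits the precision.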

Additional observations from a re-analysis of the deposited data

Results flagged for a closer look

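In all 12 genes the auxin arrays and the untreated arrays did not overlap at either age, lower in young and higher in mature hypocotyls. Over all 22746 non-control probe sets this joint pattern held in 1.6%. The result is listed here because the auxin arrays lay on opposite sides of the untreated arrays at the 2 ages. TBL45, AT4G37110 and ASPGB1, just outside the thresholds, showed the same separation, so it is not particular to the 12. The 12 genes were chosen for opposite differences of the group means. That favours such a separation without requiring it, and the difference from all probe sets was not tested for that reason.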

How the results depend on the processing

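The count of genes called for age, averaged over treatments, was 11 of 12 in the fit as reported, 11 with the replicate number as a block, which changed no call, and 11 without any single array (range 11 to 11). Leaving out all 4 arrays of low bioC signal gave 10, and 8 were called with a minimum log2 difference of 1. In the fit as reported 21.2% of all probe sets were called lower and 21.8% higher with age. The shares of all probe sets under the other settings were not computed, so these counts have no background beside them. Settings other than leaving out 1 array gave 84 age differences of single genes. Of these, 80 kept direction and call, 4 lost the call and 0 changed sign. Several of these settings, such as the block and the minimum difference, leave the estimate itself as it is, so no sign could change there. Leaving out 1 array changed 0 of 144. The set itself depends more on the choices. The rule gave 12 genes as reported, 32 at a threshold of 0.5 and 4 at 1.0, the last being AT5G48900, AT4G17240, AT3G16370 and AT1G80280. Without any single array it gave 11 to 16 genes, of which 10 to 12 were among the 12. Without the 4 arrays of low bioC signal 7 of the 12 still met it. With quantile normalization repeated on the centred values 6 did, though all 12 kept both signs under either setting. The cause was not tested. These counts of genes kept, and the next check, were added after seeing the data. Chosen on the arrays of 2 replicate numbers, 14, 13 and 19 genes met the rule. On the arrays of the number left out, all had a negative young response, all but 1 of the 19 a positive mature one, and 7, 8 and 7 passed both thresholds. The arrays left out come from the same study and were processed with the others. The counts thus describe the spread between arrays and are no independent check of the set.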
